A study of Homo sapiens with 6 samples.

Results

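Inhibitor of apoptosis (IAP) genes and genes of the mitochondrial proteins that oppose them or act after release were examined in CAL27, an established line grown from a human squamous carcinoma of the tongue. The members are 8 genes chosen by symbol and not by measured value: the IAP genes BIRC2, BIRC3, XIAP and BIRC6, the IAP antagonists DIABLO and HTRA2, and the mitochondrial death effectors AIFM1 and ENDOG. All 8 were found among the 32353 genes of the count table and among the 31513 genes of the FPKM table (fragments per length of gene model, scaled to library size), and all 8 passed the filter on low counts that left 17887 genes for testing. The survivin gene BIRC5 was not counted as a member and is given among related genes. CAL27 cells made to overexpress RBM24 (3 libraries) were compared with CAL27 cells given a control plasmid (3 libraries), in total RNA read as 150-nt pairs. No time after transfection, clone or selection is given in the labels, nor is it said whether the libraries came from separate cultures, so p-values measure the spread between these libraries, which may be technical.

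IAP proteins carry baculoviral IAP repeats, the folds with which they bind partners, and several carry a RING domain that attaches ubiquitin. XIAP binds and inhibits executioner and initiator caspases directly, whereas cIAP1 (BIRC2) and cIAP2 (BIRC3) act mainly as ubiquitin ligases at TNF receptors, where they sustain NF-kappaB signalling and hold back cell death. When the outer mitochondrial membrane is permeabilised, SMAC (DIABLO) and the protease HTRA2 enter the cytosol and bind IAPs through a short N-terminal motif, while AIF (AIFM1) and endonuclease G (ENDOG) travel to the nucleus and take part in DNA breakdown. BIRC3 is a textbook NF-kappaB target gene. RBM24 is an RNA-binding protein known as a regulator of splicing and mRNA stability that prefers GU-rich RNA.

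The promoters of BIRC3 and BIRC2 are shown because the neighbouring and closely related cIAP genes differ in the NF-kappaB consensus. They come from RefSeq on GRCh38.p14 and run from 250 bases before to 50 bases after an annotated start, on the plus strand at chr11:102317234-102317533 for BIRC3 and at chr11:102346964-102347263 for BIRC2. Capitals mark matches to the canonical NF-kappaB consensus, searched on both strands.
BIRC3 promoter: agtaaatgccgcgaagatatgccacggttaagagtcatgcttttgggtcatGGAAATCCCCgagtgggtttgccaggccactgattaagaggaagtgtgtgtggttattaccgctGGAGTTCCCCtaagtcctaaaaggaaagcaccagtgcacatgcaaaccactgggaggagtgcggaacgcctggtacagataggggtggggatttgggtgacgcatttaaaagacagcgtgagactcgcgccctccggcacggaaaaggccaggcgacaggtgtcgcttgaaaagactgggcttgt
BIRC2 promoter: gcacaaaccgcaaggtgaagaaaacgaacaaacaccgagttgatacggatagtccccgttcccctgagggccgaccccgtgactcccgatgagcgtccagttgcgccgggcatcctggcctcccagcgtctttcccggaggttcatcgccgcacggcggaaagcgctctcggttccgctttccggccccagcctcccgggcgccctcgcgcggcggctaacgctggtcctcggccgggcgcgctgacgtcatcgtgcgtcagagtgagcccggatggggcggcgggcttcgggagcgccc
The BIRC3 window held 2 matches, both read on the minus strand, whose first bases lie 199 and 135 bases upstream of the start at 102317484. Neither annotated BIRC2 start had a match in its window. Among all 16 windows of the members, 2 held a match (12.5%), the second being 1 of the BIRC6 windows, against 2075 of 35116 windows over all annotated promoters (5.91%). At least 2 matches were held by 259 of all windows (0.738%). A match describes these letters and is neither a bound site nor a cause.

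Short 3′ UTR stretches around GTGTG, a GU-rich 5-letter word looked for on the sense strand with overlaps counted, are shown because RBM24 prefers GU-rich RNA and because the members differ in carrying it. The sequences are from GENCODE 29 transcripts on GRCh38, with the word in capitals and DNA letters.
AIFM1: ctgtgtatgaGTGTGaatgatcaag
BIRC3, first: atgaagccagGTGTGgtggtatgtg
BIRC3, second: tacatcgaagGTGTGcatatatgtt
ENDOG: gagactgtggGTGTGTGcaggccgg
The AIFM1 word starts at base 100 of a 3′ UTR of 187 bases, and the BIRC3 words at bases 361 and 538 of 632. ENDOG has 2 overlapping copies from base 25 of a 3′ UTR of only 67 bases. XIAP holds 8 in 6798 bases, or 1.18 per kilobase, against a median of 0.871 per kilobase over 18700 protein-coding genes, of which 60.5% hold at least 1. None was found in the principal 3′ UTR of BIRC2, BIRC6, DIABLO or HTRA2. No member with or without the word passed the test of the RBM24 comparison described next.

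The libraries held 53558773 to 68804210 gene counts. RBM24 itself was 40.5-fold higher, with 125, 109 and 124 CPM (counts scaled to library size with TMM factors) in RBM24 libraries, against 2.35, 2.96 and 3.50 CPM in control libraries, which matches the labels (log2 fold change 5.34, SE 0.0995, edgeR quasi-likelihood test with Benjamini-Hochberg adjustment, adjusted p = 2.16e-15). Over all tested genes 153 were called higher and 122 lower at an adjusted p under 0.05 (1.54% called), and total-count scaling in place of TMM (trimmed mean of M-values) scaling gave 223 higher and 106 lower. Control library 1 stood apart on the first principal component (32.97% of the variance), at -33.4, against 9.28 to 15.4 for RBM24 libraries and -4.95 and -0.0363 for the other controls. The summed level of 6 squamous epithelial markers, all detected, was 1359 to 1384 CPM in RBM24 libraries and 1222 to 1335 CPM in control libraries. Summed fibroblast markers were at 15.9 to 16.9 CPM against 13.7 to 16.4 CPM in controls, immune markers at 19.2 to 20.02 CPM against 18.7 to 21.8 CPM, and endothelial markers at 8.69 to 9.72 CPM against 9.53 to 11.6 CPM. Single genes carried most of these sums: COL1A1 had 613 to 803 raw counts in RBM24 libraries and 540 to 742 in control libraries, CD14 had 964 to 1258 against 1066 to 1100 in controls, and CDH5 had 464 to 574 against 487 to 696 in controls. The fibroblast genes COL3A1 and DCN, the immune genes PTPRC and CD3E, and the endothelial gene KDR had at most 5 counts in any library. Other markers of these lists were detected. Over the 6 libraries the fibroblast genes PDGFRB, COL1A2 and LUM had 151 to 226, 24 to 68 and 21 to 37 counts. The immune gene CD68 had 49 to 83 counts, and the endothelial genes PECAM1 and VWF had 9 to 27 and 9 to 17. The part of other cell types in the results was not tested.

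None of the 8 members was called in either direction, beside 1.54% of all tested genes, so none of these 8 was shown to change. Their log2 fold changes, RBM24 over control, ran from -0.12 to 0.66 with a median of 0.03, 5 positive and 3 negative, beside a median of -0.00 over all genes. By edgeR 1 member, DIABLO, had an unadjusted p under 0.05, as did 2330 of all genes (13%), and DESeq2, limma-voom and limma on FPKM also called no member. The RBM24 and control libraries did not overlap for 2 of the 8, DIABLO and ENDOG, both higher in RBM24 libraries, beside 18.1% of all genes in either direction. In bulk RNA, fewer cells with a transcript and less transcript per cell cannot be told apart.

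**Figure D1:**
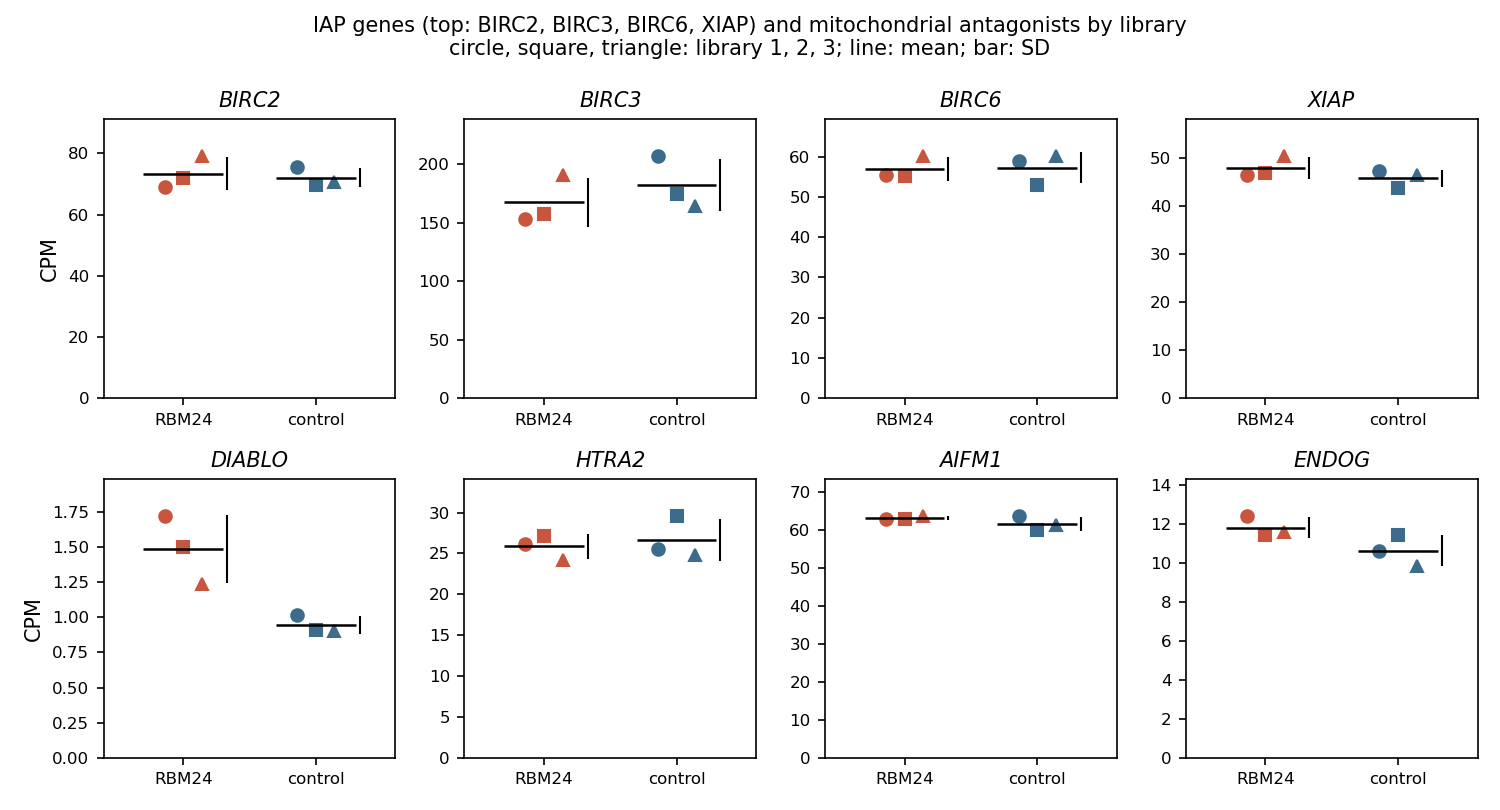
TMM-scaled CPM of each member in the 3 RBM24 and 3 control libraries, with the mean as a line and the SD as a bar; each vertical axis starts at 0. The groups overlap for 6 members and are apart for DIABLO, at about 1 CPM, and by a very small gap for ENDOG.

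BIRC2, which encodes cIAP1, lies at chromosome 11, 102347211 to 102378670 on the plus strand (ENSG00000110330.9, GENCODE 29 on GRCh38, as for all gene coordinates here). It was read at 68.9, 72.1 and 79.3 CPM in RBM24 libraries, against 75.7, 69.7 and 70.8 CPM in control libraries. RBM24 library 3 was the highest of the 6 and RBM24 library 1 the lowest, so the control values lie inside the RBM24 range. The means were 73.4 ± 5.32 and 72.1 ± 3.20 CPM (SD, n = 3 each), with a log2 fold change of 0.03 and a 95% interval of -0.10 to 0.15 (edgeR adjusted p = 0.902). That interval spans a fold of 0.936 to 1.11.

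BIRC3, which encodes cIAP2, lies on the same strand of chromosome 11 at 102317450 to 102339403 (ENSG00000023445.16). Its 153, 158 and 191 CPM in RBM24 libraries stood against 207, 175 and 165 CPM in control libraries. RBM24 library 3 was above control libraries 2 and 3, and control library 1 was the highest of the 6. The averages were 167 ± 20.6 CPM in RBM24 libraries and 182 ± 22.3 CPM in control libraries (SD, n = 3 each), the largest relative spread among the members apart from DIABLO. BIRC3 had the lowest log2 fold change of the 8, -0.12 with a 95% interval of -0.30 to 0.06 (edgeR adjusted p = 0.582). The estimate was -0.02 without control library 1 and -0.23 without RBM24 library 3, with adjusted p-values between 0.209 and 0.948 over all alternatives.

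XIAP, the direct caspase inhibitor, lies on chromosome X at 123859724 to 123913979, plus strand (ENSG00000101966.13). RBM24 libraries held 46.5, 47.0 and 50.6 CPM of it, against 47.3, 43.8 and 46.5 CPM in control libraries. Only RBM24 library 3 exceeded every control value. The log2 fold change was 0.07 with a 95% interval of -0.05 to 0.19 (edgeR adjusted p = 0.669).

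BIRC6, which encodes the giant ubiquitin-conjugating IAP also called BRUCE or Apollon, spans chromosome 2 from 32357028 to 32618899 on the plus strand (ENSG00000115760.14). It stood at 55.5, 55.1 and 60.3 CPM in RBM24 libraries and at 58.9, 52.9 and 60.2 CPM in control libraries. High and low values occur in both groups, and the highest values of the 2 groups are almost equal. Its log2 fold change was -0.01 with a 95% interval of -0.14 to 0.12 (edgeR adjusted p = 0.971), and its sign turned under several alternatives.

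**Figure D2:**
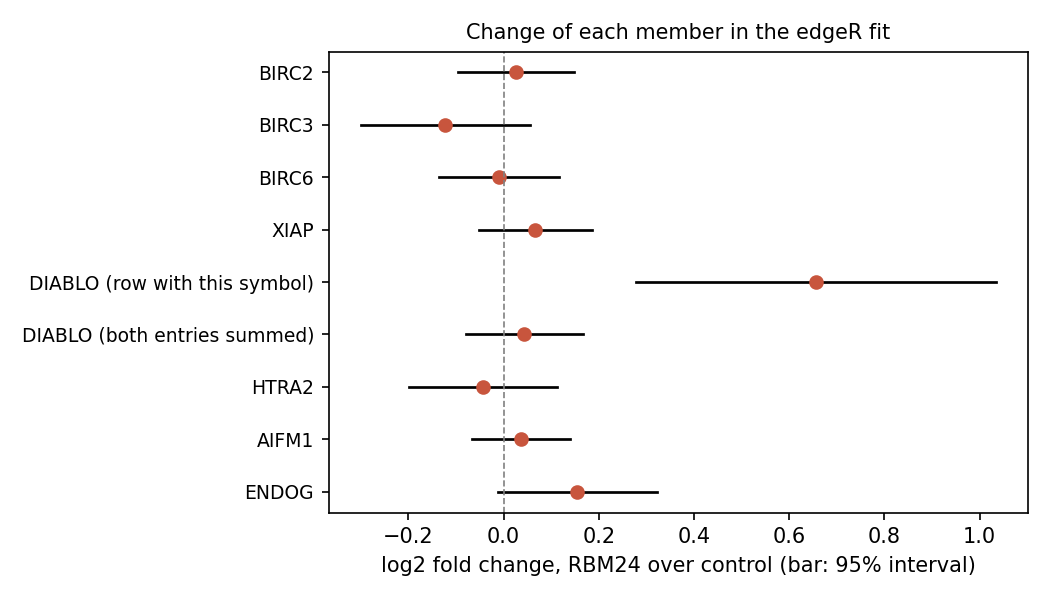
Log2 fold change of each member, RBM24 over control, as points with 95% intervals from the edgeR fit; the dashed line marks 0. The interval of the row named DIABLO lies above 0 at 0.28 to 1.03, while that of the summed DIABLO entries, -0.08 to 0.17, and those of the other 7 members include 0.

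The row that carries the symbol DIABLO (ENSG00000184047.20, chromosome 12, 122207663 to 122226568, minus strand) was the only member with a sizeable estimate. It held 119, 81 and 76 raw counts in RBM24 libraries, against 56, 49 and 57 in control libraries. All 3 RBM24 values were above all 3 control values, at a depth of at most 1.72 CPM. The row was 1.58-fold higher (95% interval 1.21 to 2.05, log2 fold change 0.66, SE 0.179) but missed the threshold, at an edgeR p of 0.00204 and an adjusted p = 0.0904. With no filter on low counts it was called, at an edgeR adjusted p = 0.0312, and the adjusted p ran from 0.0312 to 0.427 over the alternatives that keep this row by itself, none of the others of which called it.

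Most reads of the DIABLO locus are in another row. The table symbol of that second entry is RP11-512M8.12 (ENSG00000284934.2, chromosome 12, 122207662 to 122227534, minus strand), and GENCODE 29 names it DIABLO as well. Its 4372, 3597 and 3605 raw counts in RBM24 libraries stood against 3467, 3413 and 3641 in control libraries. Over the 6 libraries this entry held 22095 counts, against 438 in the row with the symbol. On the CPM scale it was at 63.3, 66.5 and 58.6 in RBM24 libraries and at 63.0, 63.5 and 57.9 in control libraries, so the groups overlapped, and its log2 fold change was 0.03 (SE 0.0580, edgeR adjusted p = 0.880). The entries share 2006 exon bases, which is 29.6% of the row with the symbol and 85.3% of the second entry. The split of their reads therefore depends on how the counter treated shared bases, a setting not stated in the labels or headers. On the opposite strand, exons of B3GNT4 overlap the row with the symbol by 970 bases (14.3%) and the second entry by 916 bases (39.0%). B3GNT4 held 1454 counts over the 6 libraries. Since it is not stated whether counting used strand, part of the reads of either entry could belong to B3GNT4.

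With both entries summed, a choice made after the data were seen, DIABLO stood at 65.0, 68.0 and 59.8 CPM in RBM24 libraries, against 64.0, 64.4 and 58.8 CPM in control libraries. The groups overlapped. The log2 fold change of the sum was 0.04 with a 95% interval of -0.08 to 0.17 (edgeR adjusted p = 0.817), and it was also 0.04 when RP11-512M8.13, a further same-strand entry that reaches into VPS33A, was added (edgeR adjusted p = 0.813). The row with the symbol made up 2.65%, 2.20% and 2.06% of both entries in RBM24 libraries, and 1.59%, 1.42% and 1.54% in control libraries. Every RBM24 share was above every control share. By exact 95% binomial intervals, which cover counting error only, RBM24 library 1 (2.20% to 3.16%) was clear of all controls, whereas RBM24 libraries 2 (1.75% to 2.73%) and 3 (1.63% to 2.58%) each overlapped all 3 control intervals, whose upper ends were 2.06%, 1.87% and 1.99%. The log2 ratio of the row to the second entry was 0.59 higher in RBM24 libraries (exact two-sided permutation p = 0.1, the smallest that 3 against 3 allows, and 0.233 after Benjamini-Hochberg adjustment over 7 ratios chosen after values were seen).

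**Figure D3:**
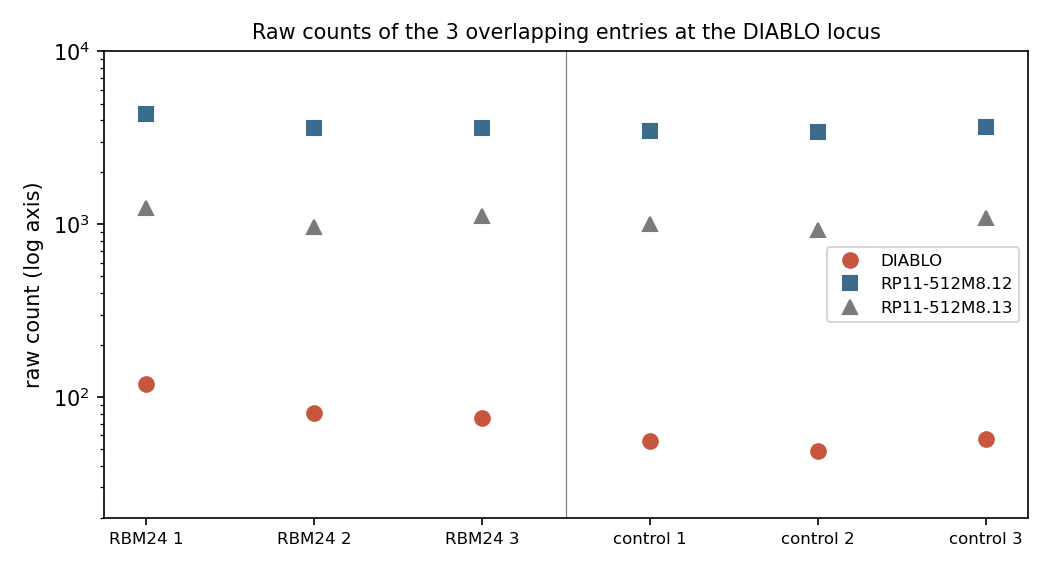
Raw counts, on a log axis, of the 3 overlapping same-strand entries at the DIABLO locus in each RBM24 and control library. The row named DIABLO lies at 49 to 119 counts in every library, while the second entry, RP11-512M8.12, lies at 3413 to 4372.

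HTRA2, the serine protease also called Omi, lies on chromosome 2 at 74529377 to 74533348, plus strand (ENSG00000115317.12). It was at 26.2, 27.2 and 24.2 CPM in RBM24 libraries, against 25.5, 29.6 and 24.8 CPM in control libraries. The highest value was in control library 2 and the lowest in RBM24 library 3, with the rest between. The log2 fold change was -0.04 with a 95% interval of -0.20 to 0.11 (edgeR adjusted p = 0.864). Its exons overlap those of AUP1 by 483 bases and of LOXL3 by 625 bases on the opposite strand, and since it is not stated whether counting used strand, part of its reads could belong to either neighbour.

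AIFM1, which encodes apoptosis-inducing factor, an oxidoreductase of the mitochondrial intermembrane space, lies on chromosome X at 130129362 to 130165887, minus strand (ENSG00000156709.15). Its 63.0, 62.9 and 63.8 CPM in RBM24 libraries stood against 63.7, 60.0 and 61.4 CPM in control libraries. Control library 1 lay inside the narrow RBM24 range and the other controls below it. AIFM1 had the tightest interval of the family, a log2 fold change of 0.04 with 95% bounds of -0.07 and 0.14 (edgeR adjusted p = 0.817).

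ENDOG, the mitochondrial nuclease, lies on chromosome 9 at 128818474 to 128822677, plus strand (ENSG00000167136.7). The 3 RBM24 libraries held 859, 619 and 713 raw counts, against 584, 615 and 620 in the control libraries. In CPM these were 12.4, 11.44 and 11.6 in RBM24 libraries and 10.6, 11.44 and 9.85 in control libraries, so that the groups are apart only by a gap between RBM24 library 2 and control library 2 that vanishes at this rounding. ENDOG averaged 11.8 ± 0.540 CPM in RBM24 libraries and 10.6 ± 0.793 CPM in control libraries (SD, n = 3 each). Its log2 fold change of 0.15, with a 95% interval of -0.01 to 0.32, missed the threshold (edgeR adjusted p = 0.425). The exons overlap the more abundant SPOUT1 on the opposite strand over 460 of 1172 bases (39.2%), and without a stated strand these reads cannot be told apart.

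Levels of different genes were compared per kilobase, as the mean FPKM over the 6 libraries. The second DIABLO entry led with 24.4 FPKM (libraries between 23.1 and 26.5), followed by BIRC3 with 21.5 FPKM (19.0 to 24.8), and these ranges overlap. BIRC2 came next with 14.8 FPKM (13.96 to 16.4), below every BIRC3 library. HTRA2 at 9.28 FPKM and ENDOG at 9.07 FPKM overlapped, as did XIAP at 4.83 FPKM and AIFM1 at 4.41 FPKM. BIRC6 was lower in every library, at 2.96 FPKM, and the row with the DIABLO symbol was last at 0.162 FPKM. CAL27 cells therefore held more cIAP2 and cIAP1 transcript than XIAP transcript per kilobase in all 6 libraries.

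The place of AIFM1 in that order depends on the gene model. Its deposited FPKM and counts imply a model of 13091 bases, 3.96 times the 3306 bases of merged exons in GENCODE 29, and only 0.413% of 11149 genes had a model longer by as much. On CPM per kilobase of GENCODE 29 exons AIFM1 stood at 18.9, behind the second DIABLO entry at 26.4 and BIRC3 at 23.2 and ahead of BIRC2 at 16.1. The AIFM1 counts may have been taken over the longer model, in which case 18.9 could be too high. Its place is therefore not settled by either measure. The other members differed less between the models, but the order of HTRA2 and ENDOG turned, to 8.75 for HTRA2 and 9.58 for ENDOG on CPM per kilobase. Among the 4 IAP members on that scale, BIRC3 took 46.5%, 46.4% and 49.0% of the summed level in RBM24 libraries, against 52.2%, 50.02% and 47.6% in control libraries. The shares overlap, with RBM24 library 3 above control library 3.

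**Figure D4:**
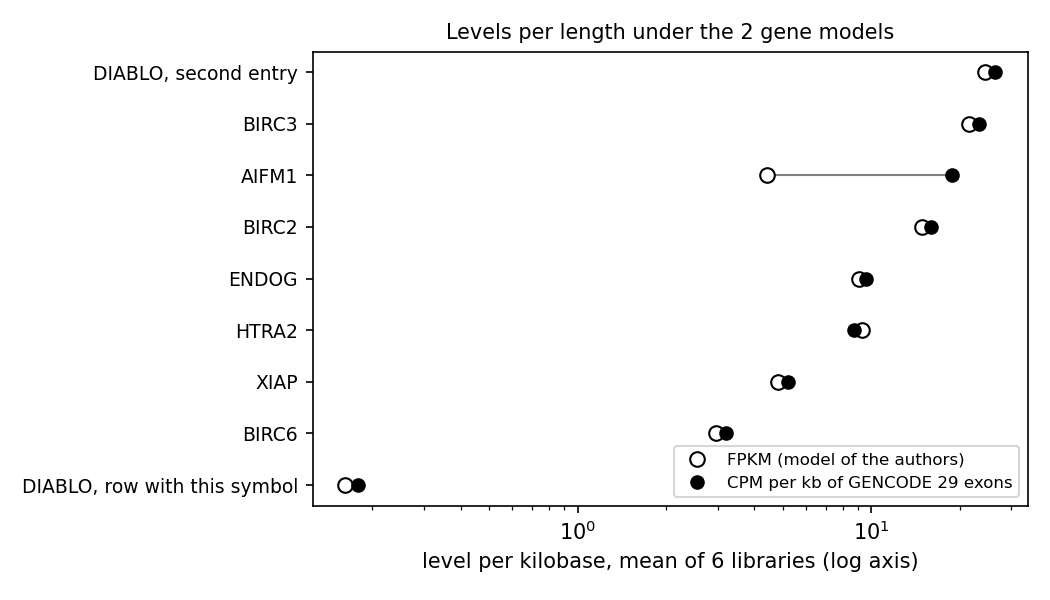
Mean level per kilobase over all 6 libraries, on a log axis, as deposited FPKM (open) and as CPM per kilobase of GENCODE 29 exons (filled). The 2 measures nearly coincide except for AIFM1, at 4.41 and 18.9.

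Among the remaining genes with baculoviral repeats, BIRC5 (survivin), which serves in cell division, rose to 212 ± 12.1 CPM in RBM24 libraries, against 175 ± 5.57 CPM in control libraries (SD, n = 3 each; log2 fold change 0.28, edgeR adjusted p = 0.0133). The call was lost without RBM24 library 1 (edgeR adjusted p = 0.0951) or RBM24 library 2 (edgeR adjusted p = 0.0942), with the fold change at 0.24 and 0.27. BIRC7 and NAIP had at most 8 counts in any library and were not tested, and BIRC8 was not among the rows used here.

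None of the 5 caspase and apoptosome genes was called, with 2 positive and 3 negative log2 fold changes. APAF1, the scaffold of the apoptosome, averaged 16.2 ± 0.562 CPM in RBM24 libraries and 18.0 ± 0.561 CPM in control libraries, without overlap (SD, n = 3 each; log2 fold change -0.15, edgeR adjusted p = 0.349). Cytochrome c, encoded by CYCS, averaged 540 ± 10.2 CPM in RBM24 libraries and 591 ± 52.1 CPM in control libraries (log2 fold change -0.13, edgeR adjusted p = 0.391). The CYCS groups were apart by little, 551.2 CPM in the highest RBM24 library against 552.8 CPM in the lowest control, and without control library 1, at 650.5 CPM, the log2 fold change was -0.06. CASP9, the initiator caspase that XIAP binds, had a log2 fold change of 0.03 (edgeR adjusted p = 0.916).

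Of 16 genes of the TNF receptor complex and the NIK axis, in which cIAPs act, 0 were called, with a median log2 fold change of -0.01. The smallest p-values belonged to MAP3K14, the kinase NIK that cIAPs keep low at the protein level (36.9 ± 0.343 CPM in RBM24 libraries, 32.7 ± 2.76 CPM in control libraries, log2 fold change 0.18, edgeR adjusted p = 0.240), and TRAF1, an adaptor that binds cIAPs (log2 fold change -0.36, edgeR adjusted p = 0.360). Without control library 1 the MAP3K14 estimate was 0.11, and without RBM24 library 2 that of TRAF1 was -0.23. Among 5 XIAP regulators and substrates none was called. SEPTIN4, whose ARTS isoform antagonises XIAP, was at 1.22 ± 0.0841 CPM in RBM24 libraries and 0.722 ± 0.104 CPM in control libraries (SD, n = 3 each; log2 fold change 0.77, edgeR adjusted p = 0.0548), and XAF1, another antagonist, had a log2 fold change of 0.16 (edgeR adjusted p = 0.568). The SEPTIN4 groups did not overlap, and the gene passed with no filter on low counts, with a floor of 50 on the mean count and with total-count scaling, at edgeR adjusted p-values of 0.0169, 0.0467 and 0.0368. It did not pass under any other alternative, at an adjusted p of 0.128 by DESeq2, 0.0684 by limma-voom, 0.182 to 0.311 by limma on FPKM, and up to 0.213 by edgeR with 1 library left out.

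Of 9 genes for maturation and release of the mitochondrial factors, 1 was called higher and none lower. PINK1, the kinase that marks damaged mitochondria, averaged 83.3 ± 0.378 CPM in RBM24 libraries and 70.6 ± 4.59 CPM in control libraries (SD, n = 3 each; log2 fold change 0.24, SE 0.0529, edgeR adjusted p = 0.0304). That call was fragile and was lost without any single library other than control library 2 (edgeR adjusted p = 0.00896 without that one). The adjusted p was 0.132, 0.160 and 0.0764 without RBM24 libraries 1, 2 and 3 (edgeR). It was 0.0869 and 0.111 without control libraries 1 and 3 (edgeR). The log2 fold changes of these lost calls were 0.20 to 0.24. BAK1, which forms pores in the outer membrane, was next by p, with a log2 fold change of -0.11 (edgeR adjusted p = 0.421), and its partner in that role BAX was at -0.02. HAX1 and PARL, which have been linked to HTRA2 processing, had log2 fold changes of -0.09 and -0.04, and CHCHD4, an import factor that binds AIF, was at 0.11.

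The 8 AIF and nuclease partners held no call, with a median log2 fold change of 0.07. PARP1, whose polymer product triggers AIF release, averaged 380 ± 5.57 CPM in RBM24 libraries and 350 ± 3.51 CPM in control libraries without overlap (SD, n = 3 each; log2 fold change 0.12, edgeR adjusted p = 0.290), and DFFB, the caspase-activated DNase, was at 0.17 (edgeR adjusted p = 0.404). None of the 3 BIRC6 partners was called, with log2 fold changes of -0.09 for UBA6, which charges BIRC6 with ubiquitin, and 0.07 for MAP1LC3B, which BIRC6 ubiquitinates. Of the secreted HTRA paralogs only HTRA1 was tested, at 0.16 (edgeR adjusted p = 0.647). Over all pathway genes tested outside the members, 58 in number, 2 were called higher and 3 lower, beside 1.54% of all tested genes in either direction; the 3 lower calls come from the list described next.

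Those 3 calls were all in the list of 10 NF-kappaB feedback and target genes, which was already known from earlier results of these libraries to be lower with RBM24 and is no independent evidence. All 10 had negative log2 fold changes, with a median of -0.26. CCL20, a chemokine, fell to 97.6 ± 19.0 CPM in RBM24 libraries, against 184 ± 52.1 CPM in control libraries (log2 fold change -0.91, edgeR adjusted p = 0.00604; by DESeq2 the adjusted p was 0.0553). ICAM1, an adhesion molecule, fell to 526 ± 42.3 CPM in RBM24 libraries, against 681 ± 69.1 CPM in control libraries (log2 fold change -0.37, edgeR adjusted p = 0.0159). NFKBIA, the feedback inhibitor, fell to 430 ± 24.99 CPM in RBM24 libraries, against 528 ± 53.9 CPM in control libraries (log2 fold change -0.30, edgeR adjusted p = 0.0418; SD, n = 3 each throughout). The ICAM1 call was lost without RBM24 library 1 or 2 (edgeR adjusted p = 0.0951 and 0.103), and the NFKBIA call without RBM24 library 1 or 2 or control library 1 or 2 (edgeR adjusted p = 0.214, 0.192, 0.102 and 0.101).

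BIRC3 was set beside these genes library by library, as log2 CPM minus the mean of the 6 libraries. The median of the 10 NF-kappaB genes was at -0.22, -0.12 and -0.05 in RBM24 libraries, against 0.23, 0.18 and -0.01 in control libraries. BIRC3 was at -0.18, -0.14 and 0.14 in RBM24 libraries, against 0.25, 0.01 and -0.08 in control libraries. It lay on the same side of its mean as the list median in 5 of the 6 libraries, the exception being RBM24 library 3, where BIRC3 and also BIRC2 (0.13) were high. BIRC3 in control library 2 (0.01) and the list median in control library 3 (-0.01) were near 0, so the side says little there. How often other genes share the side of the list median is not given here. BIRC2 stayed between -0.08 and 0.13 in all libraries.

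As log2 ratios, BIRC3 over ICAM1 was at -1.66, -1.73 and -1.58 in RBM24 libraries, against -1.81, -2.03 and -1.87 in control libraries. Every RBM24 ratio was above every control ratio, a difference of 0.25 (exact two-sided permutation p = 0.1, the smallest possible, adjusted 0.233 over the 7 ratios). BIRC3 over TNFAIP3, the gene of the feedback inhibitor A20, was 0.21 higher in RBM24 libraries, likewise without overlap (exact permutation p = 0.1, adjusted 0.233), and BIRC3 over NFKBIA was 0.17 higher with overlap (exact permutation p = 0.2, adjusted 0.28). BIRC3 over BIRC2 was at 1.154, 1.13 and 1.27 in RBM24 libraries and at 1.45, 1.32 and 1.22 in control libraries, which overlap (difference -0.15, exact permutation p = 0.2, adjusted 0.28). ICAM1, TNFAIP3 and NFKBIA come from the list already known to be lower with RBM24, at log2 fold changes of -0.37, -0.33 and -0.30. Higher ratios of BIRC3 over them were therefore favoured by the choice of denominator and are no evidence about BIRC3 itself. No ratio passed after adjustment, and with 3 libraries against 3 none could.

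**Figure D5:**
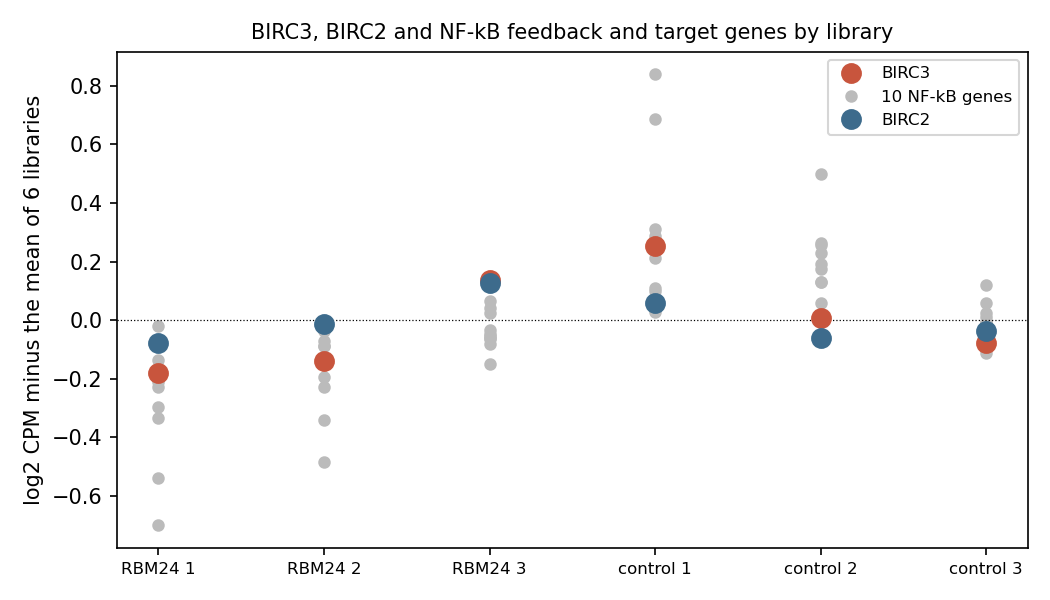
Log2 CPM minus the mean of the 6 libraries for BIRC3, BIRC2 and 10 NF-kappaB feedback and target genes in each RBM24 and control library. The grey points are mostly below 0 in RBM24 libraries and above 0 in control libraries 1 and 2, while BIRC3 is at 0.14 in RBM24 library 3 and -0.08 in control library 3.

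For each member the nearest profiles over the 6 libraries were ranked by root mean square difference of log2 CPM about the gene's own mean, among 11364 other tested genes of mean log2 CPM of at least 2 (11365 for the DIABLO row); this is a description over few libraries that share their depth and scaling. BIRC3 was nearest to DDX58, which encodes the RNA sensor RIG-I (0.0192, beside a BIRC3 spread of 0.154), then to RP11-115D10.1 and to the cytokine receptor gene IL7R. Near BIRC2 were TSC22D1 (0.0144) and CCNE2 (0.0168), and XIAP was nearest to GZF1 (0.00864), SKA3 and EIF4G2. For BIRC6 these were TPP2 (0.00648), AKAP9 and PUM2. Nearest to the DIABLO row were OSER1-DT at 0.102, HMOX1 at 0.125 and AKR1C3 at 0.128, beside a spread of its own of 0.344. The DIABLO row, at no more than 1.72 CPM in any library, is itself below the floor set on the other genes. Genes of its own depth were therefore not searched, and these distances do not show whether it has a close neighbour. HTRA2 was nearest to PSENEN (0.0124), GEMIN8 and ZNF446, AIFM1 to CSNK2A2 (0.00570), PSME4 and GNPAT, and ENDOG to PTMS (0.0213), DTNBP1 and CTD-2587H24.14.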

How the data were processed

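Total RNA of 6 CAL27 libraries was analysed from the authors' deposited tables. Reads had been aligned to GRCh38 with HISAT2, per the submitters' processing notes; of its version, the gene counter, the annotation release and the use of strand, the sources used here say nothing. The deposited counts are raw whole numbers per gene. The deposited FPKM values had been divided by the authors by gene length and a library total. The control plasmid libraries were taken from the columns headed NC. The libraries held 53558773 to 68804210 counts; the SE of a gene reflects both its depth and the spread between libraries.

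Counts were filtered with filterByExpr, scaled with TMM and compared with a quasi-likelihood F test in edgeR 4.0.16 (R 4.3.3), with a model of group alone and Benjamini-Hochberg adjustment over 17887 genes at 0.05. A 95% interval is the estimate plus or minus its SE, the estimate over the root of F, times the t quantile. Shares carry exact Clopper-Pearson intervals. For log2 ratios and profiles, a prior count of 2 entered the log2 CPM. Named are RBM24, the members, from each list the called genes and the 2 with the smallest p, and 3 nearest profiles per member; other list genes were named after their values were seen, and some genes that the rule or the lists hold are not reported here. The members and lists were chosen with earlier results of these data known, and the ratios after values were seen. Same-numbered libraries did not deviate together (correlations 0.00724, 0.0555 and -0.000390), so numbers were not used as pairs. The chi-square per gene between libraries was 4.20 to 30.1, so none was a copy of another.

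Alternatives were DESeq2 size factors, upper-quartile or total-count scaling, no filter, a floor of 50 on the mean count, limma-voom (limma 3.58.1), DESeq2 1.42.0, limma on log2(FPKM + 1) with and without the filter and on log2(FPKM + 0.1), a replicate block, each library left out, and DIABLO entries summed. The code was tested on simulated data. Gene coordinates are from GENCODE 29 and promoters from RefSeq, GRCh38.p14. Tables and figures used Python 3.11.15, pandas 2.3.3 and matplotlib 3.10.9.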

Additional observations from a re-analysis of the deposited data

How the results depend on the processing

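Over all alternatives no member was called, apart from the DIABLO row with no low-count filter (1 member called higher). Genes called higher and lower, 153 and 122 in the reported fit, were 305 and 341 with no low-count filter. By limma they were 46 and 4 on log2(FPKM + 1), 57 and 5 with 0.1 as the pseudocount, and 15 and 4 on log2(FPKM + 1) without a filter. With 1 library left out they ranged from 61 to 171 higher and from 29 to 198 lower, lowest for both without RBM24 library 2. The cause of these shifts was not tested.

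Of the member estimates under these alternatives, 126 kept their direction and call, 1 became a call and 11 changed sign, all 11 near 0. The BIRC6 log2 fold change turned to 0.0196 with total-count scaling, to 0.0180 on log2(FPKM + 1) with or without the filter and to 0.0236 with 0.1 as the pseudocount, and it ranged from -0.0641 to 0.0274 with 1 library left out. In that range BIRC2 lay between -0.0330 and 0.0712, HTRA2 between -0.0937 and 0.0384, and XAF1, a pathway gene, between -0.000533 (without RBM24 library 3) and 0.270. The DIABLO row was at 0.09 on log2(FPKM + 1), since a pseudocount of 1 is large beside its 0.162 FPKM, and at 0.04 with its entries summed. The replicate block gave 158 genes higher, 135 lower and 0 members called, and it changed no call of a named gene. By limma on FPKM the calls of BIRC5, PINK1, CCL20, ICAM1 and NFKBIA were lost, while their log2 fold changes on log2(FPKM + 1) were 0.30, 0.25, -0.85, -0.33 and -0.26, beside 0.28, 0.24, -0.91, -0.37 and -0.30 in edgeR. Among uncalled pathway genes, BAK1 was at -0.06 without control library 2 and UBA6 at -0.03 without control library 1. Depth limits the DIABLO row, with 49 to 119 counts a library, more than any other member.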
